A study of Homo sapiens with 2 samples.

Results

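The genes described here are 50 human DNA repair genes, listed by name and covering homologous recombination, the Fanconi anemia pathway, damage signalling, mismatch repair, excision repair and end joining. A gene was read from the probe sets that the array annotation assigns to it alone, and it was represented by the brightest of them (highest mean of both arrays). That gave values for 46 of the 50 genes, among 19775 genes with such a probe set. Of the other 4, PMS2 shared both of its probe sets with another symbol, and BRCA2, FANCA and FANCD2 were not analysed here. All 46 stood at or above the floor of 4.59, the middle value over both arrays without control probe sets, in the mean of both arrays, as did 12463 genes in all (63.0%), which are called the genes compared.

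RNA came from HCT15, an established human colorectal adenocarcinoma line, and each group was 1 Affymetrix array. The first was of HCT15 cells given Cas9 and a guide targeting ARID3B, which encodes a transcription factor with an ARID domain, and their genotype is labelled ARID3B knockout. The second was of HCT15 cells labelled control. The culture medium for both was RPMI with serum, and the sources used here do not give whether the edited cells were a clone or a pool. With 1 array per group there is no replicate check and no test, and every difference below describes these 2 libraries alone. Values are log2 expression values normalised with RMA, and a difference is always the knockout-labelled minus the control value, so that 1 is 2-fold.

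The targeted gene went against its label. ARID3B, read from 1 probe set, stood at 6.09 on the knockout-labelled array, against 5.12 on the control array, and the gap of 0.97 compares with a spread of 0.371 among genes of like expression. Edited transcripts can persist, and a probe set outside the edited part checks nothing. Every direction below therefore rests on the labels, and the array is called knockout-labelled throughout. The epithelial markers EPCAM (12.23 in knockout-labelled and 12.19 in control cells), KRT8 (11.01 in knockout-labelled and 10.94 in control cells) and KRT18 (12.37 in knockout-labelled and 12.35 in control cells) were high, while KRT20 was under the floor on both (2.40 in knockout-labelled and 2.58 in control cells). CDX1, VIL1 and CEACAM5 stood closer to the floor, at 5.62, 5.45 and 5.25 in knockout-labelled and 5.49, 5.66 and 5.09 in control cells. Of 10 epithelial markers 9 were compared, with a median difference of 0.08. Past their spread were 3, CDH1 at -0.45, CDX2 at 0.64 and KRT19 at 0.27. Of 10 markers of other cell types, 4 were compared (VIM, COL1A1, CD3E and PECAM1, median difference 0.17). COL1A1, with 1 of 5 probe sets above the floor, had 7.12 in knockout-labelled and 6.87 in control cells. VIM alone was past its spread, at -0.52 against 0.237, and the leukocyte marker PTPRC was under the floor, at 2.72 in knockout-labelled and 2.48 in control cells. The 3′ minus 5′ difference of ACTB probe sets, a sign of RNA integrity, was 0.67 on the knockout-labelled array and 0.73 on the control array. The 24 probe sets for the poly-A spike-ins, bacterial RNAs of a labelling control, had a mean difference of -1.19, or 2.28-fold lower. Normalisation sets the arrays to a common scale, so all differences are relative to the other genes. Scaled on the spike-ins instead, the median of the genes compared was 1.22 and none of the 46 repair genes lay below 0 (NBN at 0.049), so every "lower" below holds on the common scale alone, while genes called higher stay higher.

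DNA repair is divided by the kind of damage. Homologous recombination mends double-strand breaks from a sister copy, and end joining seals them without a template. The Fanconi proteins unhook crosslinks between the strands, excision repair removes damaged bases or short stretches, and mismatch repair corrects copying errors behind the replication fork. Many of these genes are transcribed most around DNA replication, and HCT15 is known as a mismatch repair-deficient line with mutated MSH6.

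Most repair transcripts differed little between the arrays, as did most of the genes compared (quartiles -0.23 and 0.24). In bulk RNA, fewer cells of a type and less RNA per cell cannot be told apart. Of 46 genes, 39 lay within 0.5 of 0, and 1 was at least 2-fold lower, NBN, against 3.43% of the genes compared. None was at least 2-fold higher, against 1.06%. At 1.5-fold, 3 genes were lower (NBN, BRIP1 and LIG4) and 1 higher (ERCC5), against 10% and 5.74% of the genes compared. The median difference of the 46 was -0.08, beside 0.03 over the genes compared, and 26 (56.5%) lay below 0 against a background of 45%. Above 0 were 19 (41.3%), against 52.9%. One gene, BLM, had identical values on both arrays, as did 253 (2.03%) of the genes compared.

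The spread among genes of like expression, the scaled median absolute deviation of differences in 10 bins of mean value, ran from 0.237 to 0.435. Beyond its own bin's spread, 8 of the 46 genes (17.4%) were lower, against 18.1% of the genes compared, a share near the background. They were NBN, BRIP1, LIG4, RAD51C, FANCF, PMS1, BRCA1 and FANCL. Higher by more than the spread were ERCC5 and XRCC1, 4.35% against a background of 16.8%. The other 36 genes stayed within it.

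**Figure D1:**
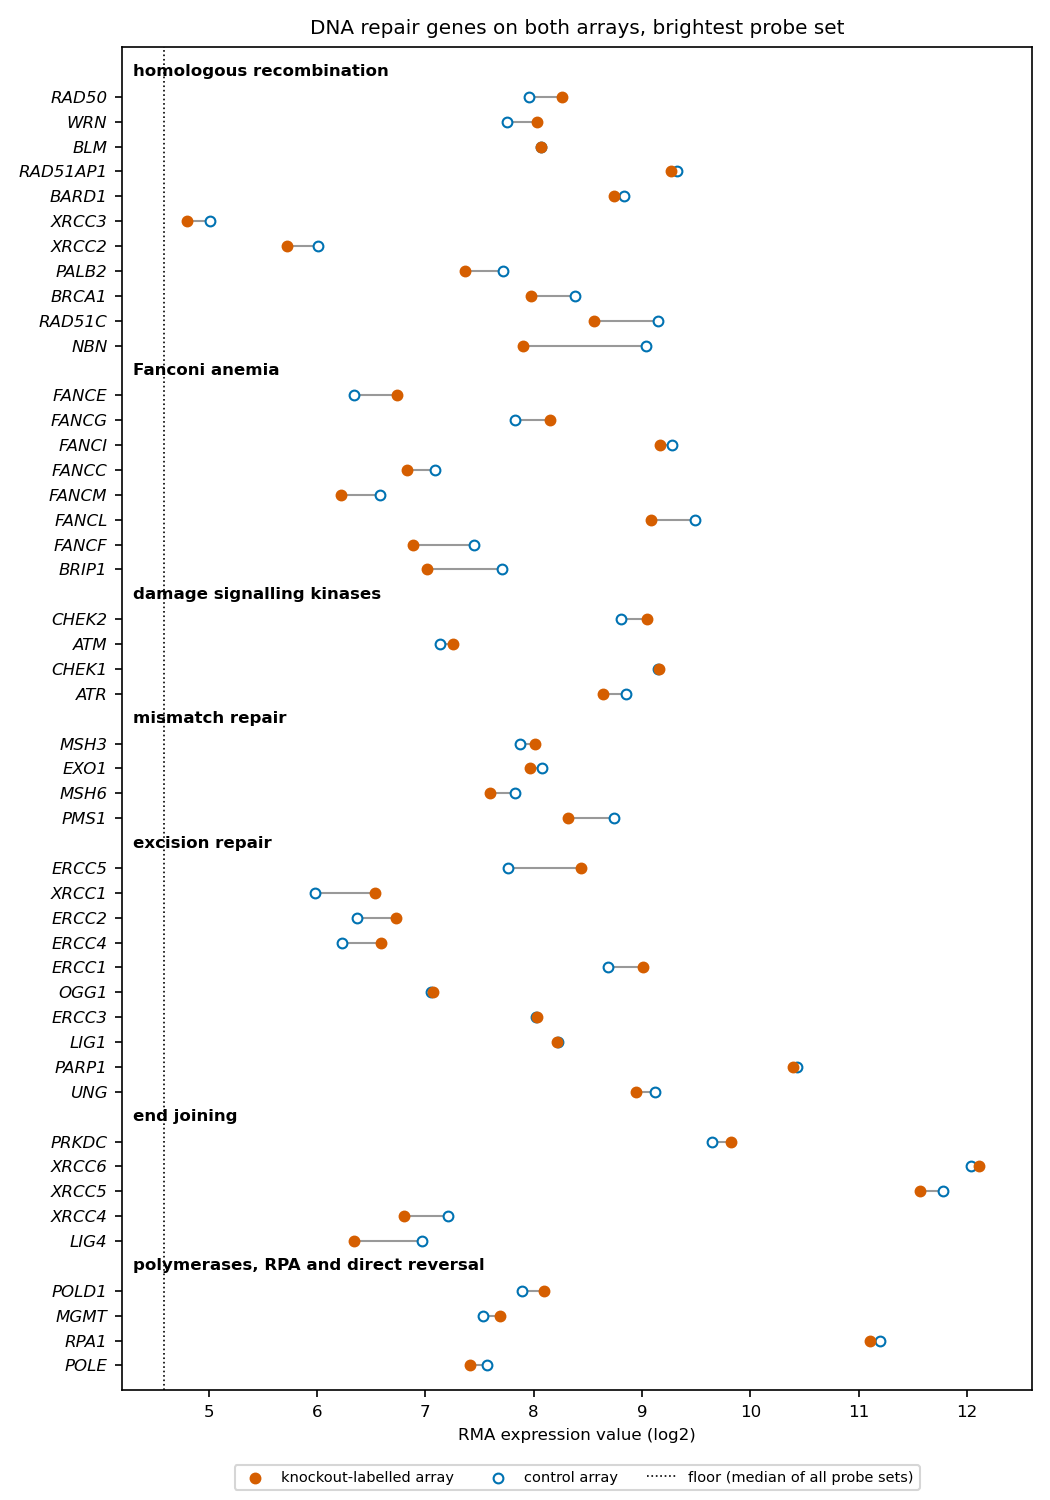
RMA log2 value (horizontal axis) of each of 46 DNA repair genes in its brightest probe set, by pathway, on the knockout-labelled array (filled) and the control array (open), 1 array each. The dotted line is the floor of 4.59. Most pairs nearly touch, and the widest gap is that of NBN, at 7.90 on the knockout-labelled array, against 9.03 on the control array.

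The pathways lay on both sides of 0. Median differences were -0.31 for 8 Fanconi genes, -0.21 for 11 homologous recombination genes, -0.20 for 5 end joining genes and -0.16 for 4 mismatch repair genes. The median was 0.07 for 4 damage signalling kinases, 0.04 for 4 genes of the polymerases, RPA and direct reversal, and 0.16 for 10 excision repair genes. The excision repair median exceeded that of homologous recombination by 0.38, which was not tested. With only genes at a mean of 6.60 or above, that gap was 0.11, excision repair stood at 0.0099 and homologous recombination at -0.10. Without probe sets marked as shared between sequences, homologous recombination stood at -0.030, excision repair at 0.30 and the polymerase group at 0.16. With probe sets averaged per gene, the kinases turned to -0.045 and the Fanconi genes stood at -0.19. Repair genes outside the list of 50, described below, did not repeat this order. Their medians were 0.03 for 26 excision repair genes and -0.04 for 23 homologous recombination genes. Fanconi (0.02, 10 genes), mismatch repair (0.07, 7 genes) and end joining (0.10, 7 genes) were above 0 there. Damage signalling stood at -0.12 (15 genes) and the polymerase group at 0.03 (17 genes).

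**Figure D2:**
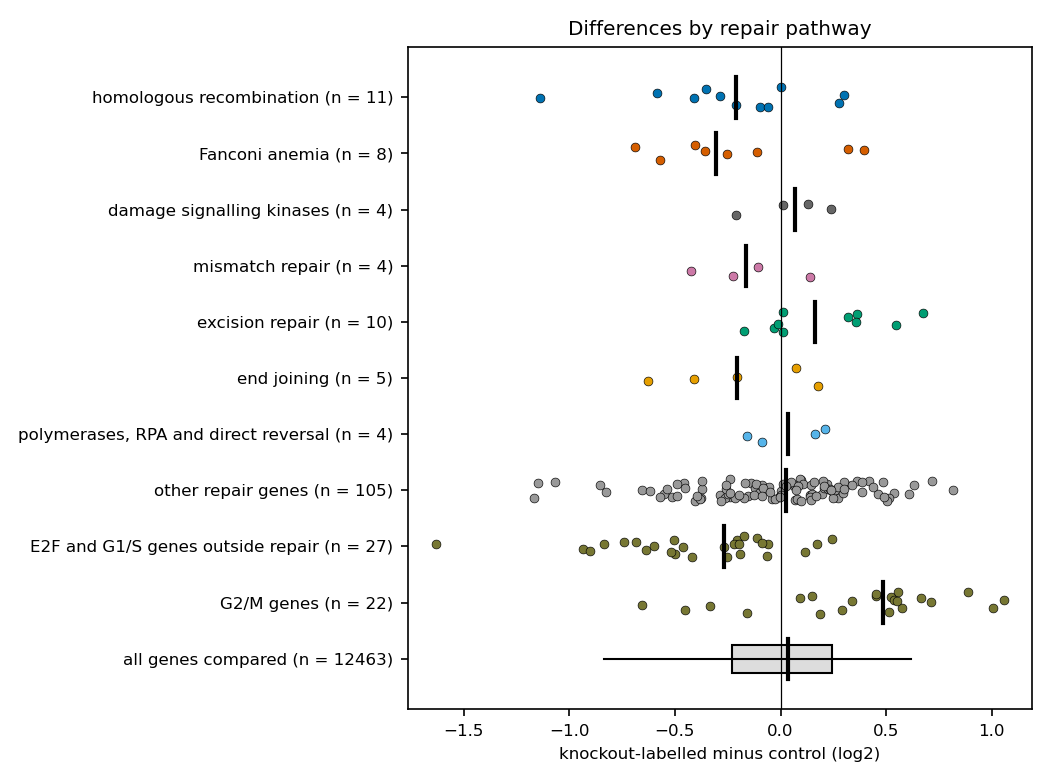
Difference, knockout-labelled minus control (log2, horizontal axis), of each gene by pathway, with the median as a black bar. The last row shows the genes compared as median, quartiles (box, -0.23 to 0.24) and 5th to 95th percentiles (line, -0.84 to 0.62), and the repair genes lie mostly inside that line.

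In homologous recombination, 8 of 11 genes lay below 0 and 2 above, against 45% and 52.9% of the genes compared. NBN, the subunit that brings the MRE11-RAD50-NBN break sensor to its signalling kinase, had a value of 7.90 on the knockout-labelled array, against 9.03 on the control array. It was 2.20-fold lower (-1.14), at percentile 2.51 of the genes compared. Its next 3 probe sets were lower too, at -0.56, -0.79 and -0.66, so that the 2-fold difference belongs to the brightest alone. All of these, the brightest included, are marked as shared between sequences. The dimmest, not so marked and under the floor on both arrays, was higher by 0.37. The mean of all 5 differed by -0.56. With 64 linear units added to both values, NBN was no longer 2-fold lower.

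The partners of NBN stayed within their spread. RAD50, the long coiled-coil ATPase of the complex, stood at 8.26 on the knockout-labelled array, against 7.96 on the control array (0.30), within the spread of 0.387. Its 3 probe sets were all higher, by 0.30, 0.20 and 0.28. The nuclease MRE11 had values of 7.25 in knockout-labelled and 7.49 in control cells (-0.24) in its only probe set above the floor. Within this 1 complex, then, the 3 transcripts differed by -1.14, 0.30 and -0.24.

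RAD51C, a paralog that helps load the recombinase on DNA, had 8.56 on the knockout-labelled array and 9.14 on the control array. Both of its probe sets gave nearly the same difference (-0.58 and -0.59), and both are marked as shared between sequences. The other paralogs stayed within their spread, XRCC2 at 5.72 in knockout-labelled and 6.01 in control cells (-0.29) and XRCC3 at 4.80 in knockout-labelled and 5.01 in control cells (-0.21).

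BRCA1, the ubiquitin ligase that promotes resection and recombinase loading, stood at 7.97 on the knockout-labelled array, against 8.38 on the control array (-0.41, and -0.20 in its other probe set). Its partner BARD1 had 8.74 in knockout-labelled and 8.84 in control cells (-0.10), with 2 further probe sets also lower (-0.14 and -0.38). PALB2, which links BRCA1 to BRCA2, had 7.37 in knockout-labelled and 7.72 in control cells (-0.35), within its spread of 0.411. All 3 of these partners were therefore lower in every probe set, BRCA1 alone by slightly more than the spread of 0.387. Both probe sets of BRCA1 are marked as shared between sequences. RAD51AP1, an accessory factor of strand invasion, was almost equal at 9.27 in knockout-labelled and 9.33 in control cells.

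BLM and WRN are RecQ helicases, which unwind recombination intermediates. BLM had 8.07 on both arrays, and WRN had 8.03 on the knockout-labelled array, against 7.75 on the control array (0.28). RECQL of the same family, outside the list of 50, was at -0.24, with all 4 of its probe sets lower. RECQL5, also outside the list, was at 0.20, with probe sets that disagreed. Both were within their spread (0.376 and 0.371). The partners that dissolve crossed strands together with BLM were each below 0, as were 45% of the genes compared. RMI1 at -0.46 and RMI2 at -0.51 were past their spread (0.379 and 0.376). The topoisomerase TOP3A at -0.14 was within its spread of 0.400.

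**Figure D3:**
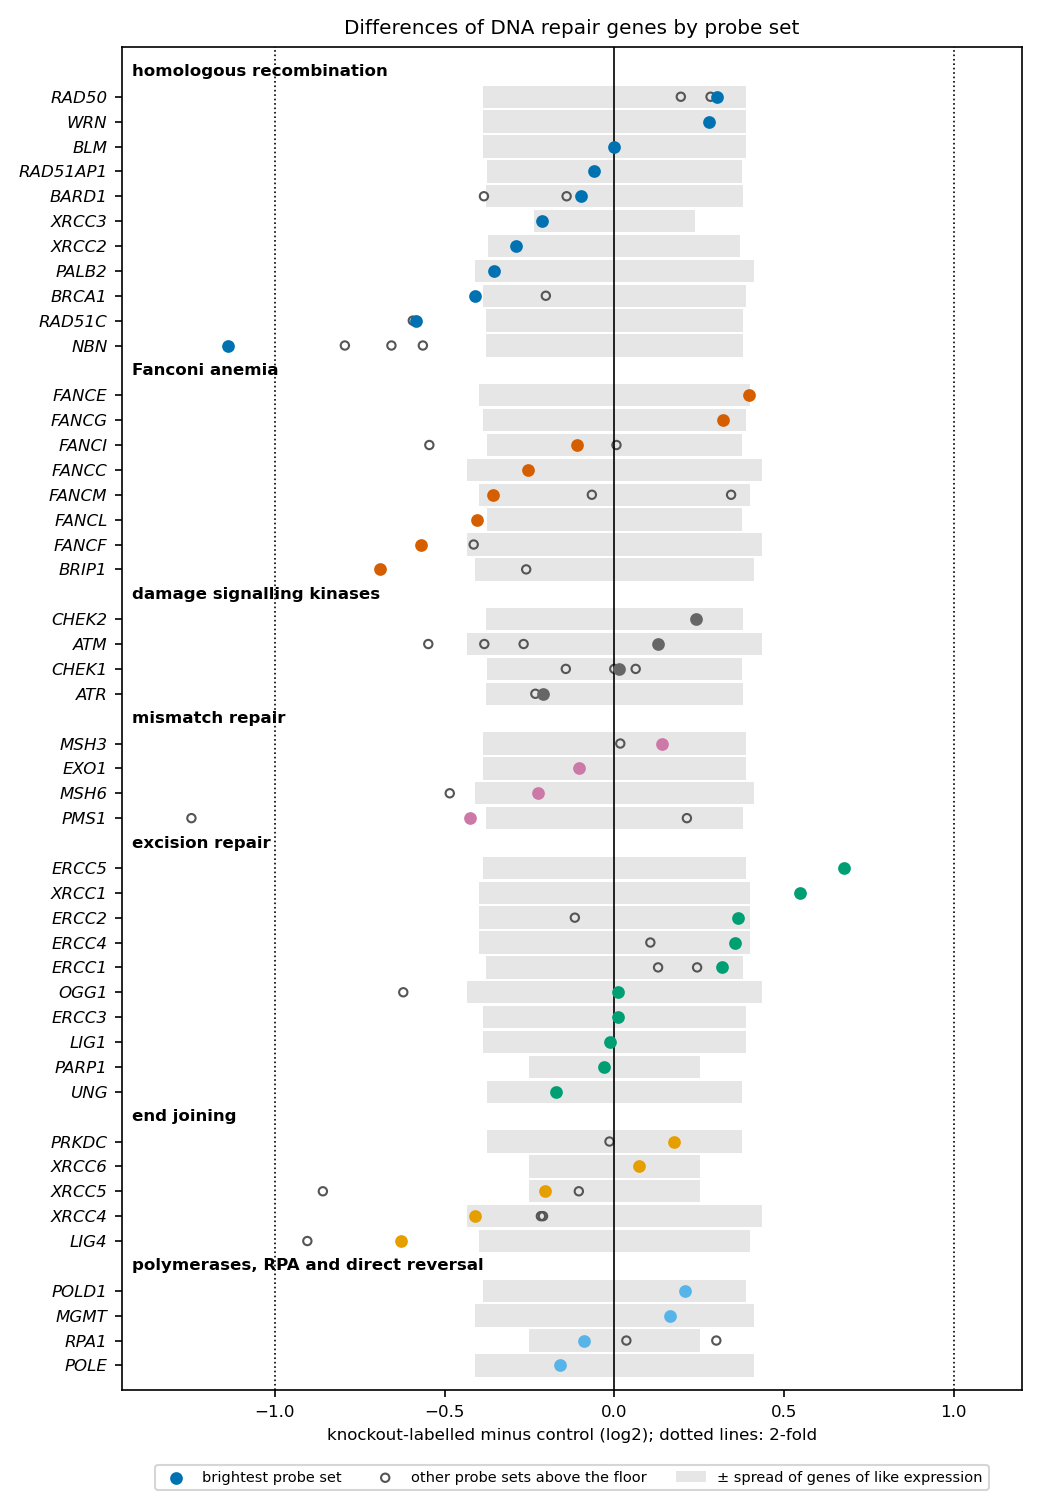
Difference, knockout-labelled minus control (log2, horizontal axis), of the 46 DNA repair genes in the brightest probe set (filled, coloured by pathway) and in every other probe set above the floor (open). The grey bar is the spread of genes of like expression, and the dotted lines mark 2-fold. The NBN and LIG4 probe sets all lie to the left of the bar, while those of ATM, PMS1 and OGG1 lie on both sides of 0.

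Among the Fanconi genes, 6 of 8 lay below 0, against 45% of the genes compared. BRIP1, the helicase that binds BRCA1, had 7.02 on the knockout-labelled array and 7.71 on the control array, 1.61-fold lower (-0.69), and its dimmer probe set differed by -0.26. FANCF, an adaptor of the core complex, had 6.88 in knockout-labelled and 7.45 in control cells (-0.57, with -0.41 in the other probe set). FANCL, the ubiquitin ligase of that complex, had 9.08 in knockout-labelled and 9.48 in control cells (-0.40), just past its spread of 0.376.

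Other core members lay on both sides of 0. FANCE had 6.73 on the knockout-labelled array, against 6.34 on the control array (0.40), and FANCG had 8.15 in knockout-labelled and 7.83 in control cells (0.32), both within their spread. FANCC, which binds FANCE and FANCF, had 6.83 in knockout-labelled and 7.08 in control cells (-0.26). The translocase FANCM had 6.22 in knockout-labelled and 6.58 in control cells (-0.36), but its 3 probe sets above the floor ran from -0.36 to 0.34. FANCI, part of the clamp that the core complex ubiquitinates, was nearly equal at 9.17 in knockout-labelled and 9.28 in control cells, with other probe sets at 0.01 and -0.54.

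The damage signalling kinases stood within their spread. CHEK2, activated by ATM, had 9.05 on the knockout-labelled array and 8.81 on the control array (0.24). ATR, the kinase of stalled forks, had 8.64 in knockout-labelled and 8.85 in control cells (-0.21, and -0.23 in its second probe set), and its target CHEK1 had 9.16 in knockout-labelled and 9.15 in control cells, with other probe sets between -0.14 and 0.06. ATM, the kinase of double-strand breaks, had 7.26 in knockout-labelled and 7.13 in control cells (0.13), but its other 3 probe sets above the floor were lower, at -0.38, -0.27 and -0.55. Its direction is therefore not settled between probe sets.

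Of the mismatch repair genes, 3 of 4 lay below 0, against 45% of the genes compared. MSH6, the partner that recognises single mismatches and the gene known to be mutated in HCT15, had 7.60 on the knockout-labelled array and 7.82 on the control array (-0.22), within the spread of 0.411. Its second probe set differed by -0.48. MSH3, its counterpart for longer loops, had 8.02 in knockout-labelled and 7.87 in control cells (0.14), with 0.02 in the second probe set. The 2 alternative partners were thus on opposite sides of 0, each by less than the spread.

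PMS1, a MutL homolog, had 8.31 on the knockout-labelled array, against 8.74 on the control array (-0.43, spread 0.379). Its dimmer probe sets disagreed, at 0.21 and -1.25, each with a mean near 5, and the mean over all of its probe sets was -0.36. EXO1, the exonuclease that removes the mismatched strand, had 7.97 in knockout-labelled and 8.07 in control cells (-0.11).

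Excision repair was the listed pathway with the highest median, and 7 of 10 genes lay above 0, against 52.9% of the genes compared. ERCC5, the XPG nuclease that cuts on the 3′ side of a bulky lesion, had 8.44 on the knockout-labelled array and 7.76 on the control array. It was 1.60-fold higher (0.68), the highest of all 46, at percentile 96.1 of the genes compared, and it has 1 probe set. XRCC1, the scaffold of single-strand break repair, had 6.53 in knockout-labelled and 5.98 in control cells (1.46-fold higher, 0.55), also in 1 probe set.

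The subunits of the ERCC1-ERCC4 nuclease, which cuts on the 5′ side, were both higher. ERCC1 had 9.01 on the knockout-labelled array, against 8.69 on the control array (0.32), and all 3 of its probe sets were higher (0.24 and 0.13 in the others). ERCC4 had 6.59 in knockout-labelled and 6.23 in control cells (0.36, with 0.11 in the second). Each stayed within its spread, 0.379 and 0.400. The helicases of TFIIH, which open the DNA around the lesion, were ERCC2, with 6.73 in knockout-labelled and 6.37 in control cells (0.36, but -0.12 in its other probe set), and ERCC3, with 8.03 in knockout-labelled and 8.02 in control cells.

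Of the listed base excision genes, the 4 besides XRCC1 were within their spread. PARP1, the sensor of strand breaks, had 10.40 on the knockout-labelled array, against 10.43 on the control array, and the ligase LIG1 had 8.21 in knockout-labelled and 8.23 in control cells. The uracil glycosylase UNG had 8.95 in knockout-labelled and 9.12 in control cells (-0.17). The 8-oxoguanine glycosylase OGG1 had 7.07 in knockout-labelled and 7.06 in control cells, but its dimmer probe set differed by -0.62.

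Of the 46 genes, 5 lie on chromosome 19 (ERCC1, ERCC2, XRCC1, LIG1 and POLD1), with a median of 0.32. Above 0 were 4 of these 5, against 52.9% of the genes compared. The 854 genes compared on that chromosome had a median of 0.10, so that part of the excision list sits on a chromosome whose genes were slightly higher as a whole. Its part in the pathway median was not tested.

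In end joining, LIG4 alone was past its spread. LIG4, the ligase that seals the ends, had 6.34 on the knockout-labelled array and 6.97 on the control array, 1.55-fold lower (-0.63), and its second probe set was lower too, at -0.90. XRCC4, which holds LIG4, had 6.80 in knockout-labelled and 7.21 in control cells (-0.41), with -0.22 and -0.21 in further probe sets, all within the spread of 0.435. The Ku subunits, which bind the ends first, were close to equal. XRCC5 had 11.57 in knockout-labelled and 11.77 in control cells (-0.20, with -0.10 and, in a dim probe set, -0.86), and XRCC6 had 12.11 in knockout-labelled and 12.03 in control cells (0.07). PRKDC, the kinase that Ku recruits, had 9.82 in knockout-labelled and 9.65 in control cells (0.18, with -0.01 in the second probe set).

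The replicative polymerases, RPA1 and MGMT were all within their spread. The catalytic subunits had opposite signs, POLD1 at 8.10 on the knockout-labelled array, against 7.89 on the control array (0.21) and POLE at 7.41 in knockout-labelled and 7.57 in control cells (-0.16). RPA1, which coats single-stranded DNA, had 11.10 in knockout-labelled and 11.19 in control cells (-0.09, with 0.04 and 0.30 in others). MGMT, which lifts alkyl groups off guanine and is often silenced in colorectal tumours, was measured at 7.69 in knockout-labelled and 7.53 in control cells (0.16).

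**Figure D4:**
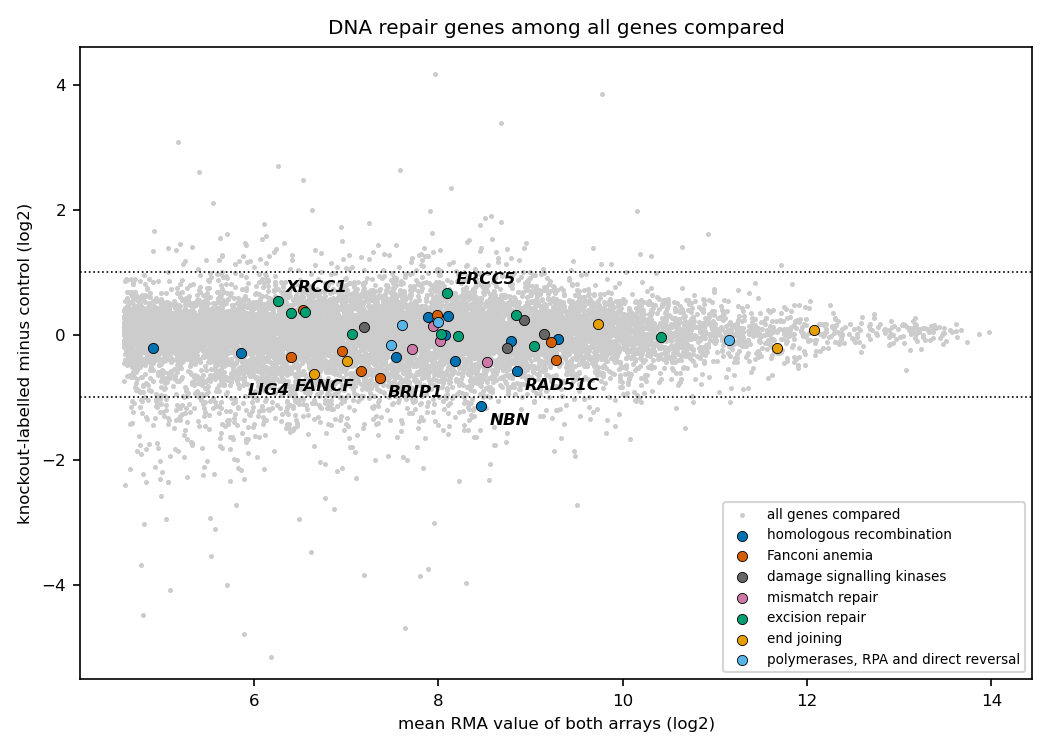
Difference, knockout-labelled minus control (log2, vertical axis), against the mean of both arrays (log2, horizontal axis) for the 12463 genes compared (grey) and the 46 DNA repair genes (coloured by pathway). Genes 0.5 or more from 0 are named, and of the repair genes only NBN lies past a dotted 2-fold line.

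Probe sets gave a second reading for part of the list. For 24 repair genes, 2 or more probe sets stood above the floor, and 15 (62.5%) had all of them in one direction, against 61.2% of the genes compared. All probe sets were lower in 11 genes and higher in 4, where the background was 29% and 32.2%. The 11 were BRCA1, BARD1, RAD51C, NBN, FANCF, BRIP1, ATR, MSH6, XRCC4, XRCC5 and LIG4, and the 4 were RAD50, MSH3, ERCC1 and ERCC4. The second-brightest probe sets of the 24 had a median of -0.13, beside -0.16 for the brightest of the same genes. Across these 24 genes, which share both libraries, the differences of the brightest and second probe sets correlated at r = 0.59, against 0.64 across 6059 genes. The other 22 repair genes have 1 probe set above the floor and no such check.

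Repair genes outside the list of 50 were read in the same way. Of 116 such genes, 9 had no single-symbol probe set and 2 (MSH4 and APLF) were under the floor. The other 105 had a median of 0.03, with 55 above 0 and 49 below, against 52.9% and 45% of the genes compared. At least 2-fold lower were 3, against 3.43% of the genes compared, and none was 2-fold higher, against 1.06%. GEN1, a resolvase of recombination junctions, had 6.14 on the knockout-labelled array and 7.31 on the control array (-1.17). TIPIN, which steadies stalled forks, had 7.75 in knockout-labelled and 8.90 in control cells (-1.15). FEN1, the flap endonuclease of long-patch base excision and of lagging strand synthesis, had 9.66 in knockout-labelled and 10.73 in control cells (-1.07, and -0.91 in its second probe set). Completing the 2 genes furthest from 0 in each pathway, whatever their size beside other pathways, were HELQ (-0.65), FANCB (-0.40), FAN1 (0.39, but -0.48 in its second probe set), RAD9A (0.63), RFC1 (0.72, with probe sets that disagreed), RFC3 (-0.45), GTF2H1 (-0.86), POLL (0.20), PAXX (0.14), POLD4 (0.81) and REV3L (-0.62). Among base excision genes, the thymine glycosylase TDG was at -0.82, with both probe sets lower, the glycosylase NTHL1 at 0.46 and PARP2 at 0.44.

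Some partners in a complex differed in sign and others did not, and complexes were not counted. The SMC5 and SMC6 subunits of a DNA repair complex were at -0.29 and -0.26. In the clamp that activates ATR, RAD9A was higher by 0.63, while HUS1 and RAD1 were both at -0.49, and all probe sets of both above the floor were lower. TIMELESS, the partner of TIPIN, was at 0.14. In TFIIH, GTF2H1 (-0.86) and GTF2H5 (-0.39) were lower, while GTF2H4 (0.34) and GTF2H3 (0.20) were higher. Of the accessory polymerase subunits, POLE2 was at -0.57, POLE3 at -0.09, POLE4 at -0.24, POLD2 at 0.14, POLD3 at -0.20 and POLD4 at 0.81.

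Genes of the cell cycle are set beside these values, because many repair genes share their timing. E2F and G1/S genes outside repair had a median of -0.27, with 24 of 27 below 0, against 45% of the genes compared. At least 2-fold lower was 1 of the 27, against 3.43%. G2/M genes had a median of 0.48, with 18 of 22 above 0, against 52.9% of the genes compared. At least 2-fold higher were 2 of the 22, against 1.06%. The part of these shifts in the repair differences was not tested.

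Promoters were read for letters of the E2F and NF-Y sites, since both factors are known to act on cell cycle and repair genes. The window ran from 150 bases before to 30 bases after each start in RefSeq (build GRCh38.p14), and 41 of the 46 genes were in the table. The E2F search took TTTCCCGC, TTTGGCGC or TTTCGCGC on either strand, and the NF-Y search took CCAAT on either strand. A match to one search does not hold a match to the other, though their ends could overlap. E2F letters stood in at least 1 window of 7 repair genes (17.1%), EXO1, FANCC, LIG1, MSH3, MSH6, POLE and XRCC2, against 3.75% of genes compared and 2.21% of all genes in the table. Of the E2F and G1/S genes outside repair, 15 of 23 (65.2%) had them. CCAAT stood in 20 repair genes (48.8%), against 34.1% of genes compared and 29.9% of all genes in the table.

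The 7 repair genes with E2F letters had a median difference of -0.16, from -0.29 to 0.14. Of these, 6 lay below 0 (45% of the genes compared did), and all 7 stayed within their spread. The other 34 had a median of -0.02. Over the genes compared the medians were -0.06 for 378 genes with the letters and 0.04 for 9715 without. Shares below 0 were not counted for these 2 sets. The 20 repair genes with CCAAT had a median of -0.13, from -0.69 to 0.36, and 12 lay below 0. The 21 without had a median of -0.01, and 11 lay below 0. Over the genes compared the order was the other way, at 0.05 for 3445 genes with CCAAT and 0.03 for 6648 without. These differences of medians were not tested, and a match is a description of letters, not of binding.

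Windows with E2F letters are printed 5′ to 3′ for the 4 such genes with a single start in the table, with matches to either search in capitals. MSH3 lies at chr5:80654502-80654681 on the plus strand, POLE at chr12:132687313-132687492 on the minus strand, XRCC2 at chr7:152676112-152676291 on the minus strand and LIG1 at chr19:48170315-48170494 on the minus strand. MSH3 holds overlapping E2F matches on both strands, POLE holds overlapping CCAAT matches besides its E2F match, and the match of XRCC2 lies after the start.
MSH3: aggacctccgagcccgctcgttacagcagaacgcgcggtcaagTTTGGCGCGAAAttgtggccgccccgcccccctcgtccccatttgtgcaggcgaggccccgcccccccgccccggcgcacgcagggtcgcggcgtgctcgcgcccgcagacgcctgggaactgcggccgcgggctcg
POLE: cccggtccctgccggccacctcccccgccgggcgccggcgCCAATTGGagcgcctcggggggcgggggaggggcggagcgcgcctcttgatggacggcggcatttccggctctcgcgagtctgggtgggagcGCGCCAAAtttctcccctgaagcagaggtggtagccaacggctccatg
XRCC2: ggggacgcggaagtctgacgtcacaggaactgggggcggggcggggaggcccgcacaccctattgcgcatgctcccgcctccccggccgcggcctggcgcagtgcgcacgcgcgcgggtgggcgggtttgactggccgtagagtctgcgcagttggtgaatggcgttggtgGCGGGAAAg
LIG1: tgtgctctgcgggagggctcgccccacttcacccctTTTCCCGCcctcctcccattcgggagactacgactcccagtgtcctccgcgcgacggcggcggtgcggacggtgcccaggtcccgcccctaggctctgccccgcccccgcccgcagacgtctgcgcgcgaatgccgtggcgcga

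For contrast, the windows of BRIP1 and FANCF, the lowest genes with a single start in the table, and of ERCC5 and XRCC1, the highest, are printed in the same way. BRIP1 lies at chr17:61863499-61863678 on the minus strand, FANCF at chr11:22625794-22625973 on the minus strand, ERCC5 at chr13:102845882-102846061 on the plus strand and XRCC1 at chr19:43575498-43575677 on the minus strand. BRIP1 and FANCF hold CCAAT letters, written ATTGG where they lie on the other strand. No match to either search is present in the ERCC5 and XRCC1 windows. CCAAT letters also stood in genes above 0, among them ERCC1, ERCC2 and CHEK2.
BRIP1: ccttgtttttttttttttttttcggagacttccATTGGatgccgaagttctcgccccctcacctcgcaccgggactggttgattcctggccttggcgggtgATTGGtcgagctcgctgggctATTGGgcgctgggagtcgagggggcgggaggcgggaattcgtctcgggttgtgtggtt
FANCF: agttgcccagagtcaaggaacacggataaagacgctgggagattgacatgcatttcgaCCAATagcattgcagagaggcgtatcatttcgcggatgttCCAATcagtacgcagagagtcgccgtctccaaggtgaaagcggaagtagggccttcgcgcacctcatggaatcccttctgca
ERCC5: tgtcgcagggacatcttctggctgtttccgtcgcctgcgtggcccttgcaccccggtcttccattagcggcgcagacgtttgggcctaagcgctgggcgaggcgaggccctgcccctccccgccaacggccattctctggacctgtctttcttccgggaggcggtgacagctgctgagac
XRCC1: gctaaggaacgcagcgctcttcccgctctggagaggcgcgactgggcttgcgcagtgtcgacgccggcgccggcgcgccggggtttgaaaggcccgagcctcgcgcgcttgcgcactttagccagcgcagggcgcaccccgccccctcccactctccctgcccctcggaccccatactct

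Other properties of the genes followed the differences weakly. Across 41 repair genes the difference correlated with promoter GC content at r = 0.24, and across 10093 genes compared at r = 0.02. GC content was taken over the whole promoter sequence, longer than the window searched above, and averaged over starts. With the logarithm of gene length, the correlation was -0.05 across the 46 genes and -0.01 across 12448 genes. These are descriptions across genes that share both libraries.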

How the data were processed

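Expression was measured in HCT15 cells on 2 Affymetrix arrays, 1 labelled ARID3B knockout and 1 labelled control. Per the submitters' processing notes, the authors used RMA, and the deposited columns hold log2 intensities. RMA subtracts background, quantile-normalises arrays and summarises probes, and it compresses dim differences. The sources used here do not give its version or which arrays were normalised together. Arrays have no read depth, and precision is limited by their number.

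Of 54675 probe sets, 62 were controls, 41091 had 1 gene symbol, 1801 had several and 11721 had none. Entrez identifiers of 41037 probe sets were found in a RefSeq gene table (GRCh38.p14), and no symbol changed. The floor was 4.59, on the mean of both arrays, so that it favours neither array. All differences and medians were computed in Python 3.11.15 with pandas 2.3.3, and loess with statsmodels 0.14.6. The procedure was tested on simulated data.

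The genes, pathways, lists and alternatives were chosen with earlier results of these data known. Every repair gene of the list is accounted for. Of the repair genes outside it, those past 2-fold and the 2 furthest from 0 in each pathway are named. Partners of a complex, RECQL, RECQL5, TDG, NTHL1 and PARP2 were named after their values were seen. The alternatives were other floors, probe set choices, scalings and thresholds, 64 linear units added, and removal of a promoter GC trend, the last chosen after seeing the data.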

Additional observations from a re-analysis of the deposited data

How the results depend on the processing

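No result has a replicate check. No paired analysis was possible because each group is 1 array and no test was made. Of 46 repair genes, 38 kept their sign under each alternative that could be computed for them, scaling on the poly-A spike-ins aside. NBN had a value in 8 of these 10 alternatives. It had none without probe sets marked as shared or with the promoter GC trend removed. Apart from that scaling, the median of the repair genes with a value in each alternative ran from -0.17 to 0.

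Scaled on the spike-ins, all differences moved up by the same amount. The median was then 1.11 for the repair genes and 1.21 for the other repair genes. By pathway it was 0.975 for homologous recombination, 0.880 for Fanconi, 1.26 for kinases, 1.02 for mismatch repair, 1.35 for excision repair, 0.982 for end joining and 1.22 for the polymerase group. No repair gene was below 0 or 2-fold lower (0 of 46), and 29 of 46 were 2-fold higher. Among the 105 other repair genes, 73 were 2-fold higher and 0 lower. NBN stood at 0.049, GEN1 at 0.019, TIPIN at 0.036 and FEN1 at 0.12. Of the 12463 genes compared, 8919 were then 2-fold higher and 38 lower, against 132 and 427 on the common scale. The share 2-fold higher was thus no larger among repair genes than over all genes.

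With 64 linear units added, no repair gene (0) and 1 other repair gene were 2-fold lower, and the medians were -0.086 for homologous recombination and -0.19 for Fanconi, with 0.19 between excision repair and homologous recombination. Over all genes 47 were then higher and 117 lower. As the mean of probe sets, 0 repair genes were 2-fold lower, and the medians were -0.19 for Fanconi and -0.045 for the kinases. Over all genes 80 were then higher and 283 lower. Without probe sets whose suffix marks shared or cross-matching sequence, 33 repair genes were left. Of these, 16 lay below 0, fewer than did not, and the share of all genes below 0 was not counted there. The median of all genes was then 0.02. Pathway medians were -0.030 for homologous recombination, 0.30 for excision repair and 0.16 for the polymerase group. The higher floor left 9 homologous recombination genes at -0.10 and 7 excision repair genes at 0.0099, 0.11 apart, and over all genes 89 were higher and 200 lower. With the GC trend removed, 0 repair genes were 2-fold lower and end joining stood at -0.43, over the 41 repair genes in the promoter table, which lacks NBN. At 1.5-fold, 3 repair genes were lower and 1 higher, 7 and 4 of the other repair genes, and 1249 and 715 of all genes.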
